A study of Mus musculus with 2 samples.

Results

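The genes of cholesterol and fatty acid synthesis were followed step by step in brain RNA of Il18 knockout and wild-type mice. Il18 encodes interleukin-18, an inflammatory cytokine related to interleukin-1. The set had 28 members, chosen by name for their place in the pathways. It comprised 7 genes of the mevalonate steps, 11 genes of the steps from squalene to cholesterol, 5 genes of sterol regulation and transport and 5 genes of fatty acid synthesis. All 28 were measured, out of 15737 named genes measured on both arrays. Both groups were male C57BL/6 N mice aged 12 weeks, of genotype Il18+/+ or Il18-/-, and the labels name no treatment. Total RNA of 7 mice was mixed into 1 pool per genotype, and each pool, labelled with the dye Cy3, was read on 1 one-colour array, so that each group had 1 sample. The tissue is given as hippocampus in the labels, while the extraction protocol speaks of prefrontal cortex. All 11 hippocampal and all 8 neocortical marker genes examined were measured on both arrays, and their median differences were 0.16 and -0.15, which does not tell which region was sampled. The kind of deletion in the Il18 allele is not given in the sources used here.

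The brain makes nearly all of its own cholesterol, because the lipoproteins of the blood do not cross the blood-brain barrier. Acetyl-CoA is built through mevalonate into farnesyl diphosphate, which is joined into squalene, closed into lanosterol and trimmed to cholesterol. When sterols run low, the carrier protein SCAP takes the transcription factors SREBP-1 and SREBP-2, encoded by Srebf1 and Srebf2, from the endoplasmic reticulum to the Golgi, where they are cut and released to the nucleus. SREBP-2 mainly drives sterol genes and SREBP-1 mainly drives fatty acid genes, while the INSIG proteins hold SCAP back when sterols are plentiful. Astrocytes and myelinating oligodendrocytes are major makers of these lipids in the brain.

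Every level below is a log2 signal from which the array's own 75th percentile was subtracted, so that 0 is that percentile, and every difference is Il18-/- minus Il18+/+. Levels of different genes come from different probes and are not compared. With 1 pool per genotype there was no replicate check and no test, so each value describes these 2 arrays. The scanner software gives its own error for each spot. For the difference of a gene read by 1 probe this error was typically 0.20 on the log2 scale, and it covers the reading of the spot only, not differences between animals or pools. In bulk tissue, fewer cells of a type and less RNA per cell cannot be told apart. The probe for Il18 itself read 1.37 in Il18+/+ and -0.12 in Il18-/-, which is 2.80-fold lower, and whether it lies in the deleted part is not known here. No spot was saturated, and 67.8% of the spots in Il18+/+ and 66.2% in Il18-/- were well above background.

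The pathway read almost alike in both genotypes, with 1 exception. Sc5d, the sterol desaturase of the last steps before cholesterol, was 1.65-fold lower in Il18-/-, and it was the only member that reached 1.5-fold in either direction. Among all measured genes 4.25% reached that size, 2.57% on the lower side and 1.68% on the higher side. A count of 1 in 28 is close to that share, so it does not set the members apart from other genes. Of the 28 members, 19 differed by less than 0.1 on the log2 scale, a band that held 41.9% of all genes. The median over the members was -0.04, beside 0.01 over all genes. Below 0 were 21 members, against 47.4% of all genes, but the side of 0 on which small differences fall depends on the scaling. The same share and limit stand beside each later count below 0 under this scaling. Counted against the median of all genes, which lies above 50% of them by construction, 23 of 28 members were lower. That count does not move when 1 constant is added to an array. It did move with other settings, to 19 with only the brightest probe of a gene and to 21 with loess or a stricter filter on dim probes. Scaling to spike-in controls instead lowers every difference by 0.29, which takes all members below 0 and Fdft1 also past 1.5-fold.

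**Figure D1:**
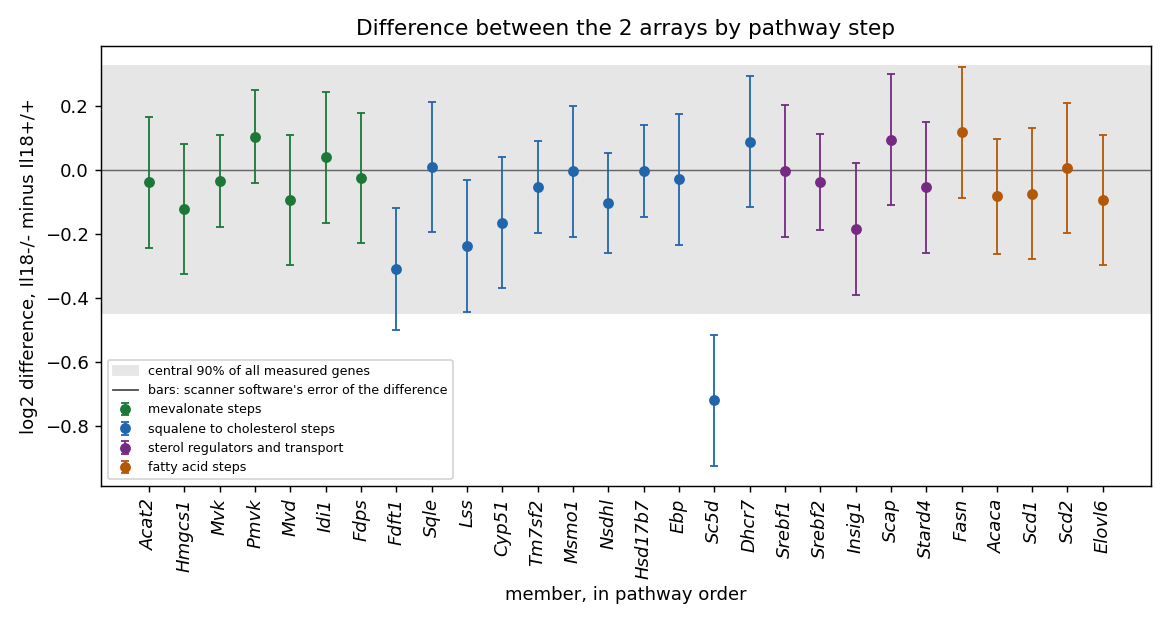
Log2 difference between Il18-/- and Il18+/+ for the 28 members in pathway order, with bars for the scanner software's error and a grey band from -0.45 to 0.33 that holds the central 90% of all measured genes. Sc5d, at -0.72, is the 1 member outside the band.

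The mevalonate steps showed no member beyond the software's error. Acat2, which encodes the cytosolic thiolase that joins acetyl-CoA units, read 0.01 in Il18+/+ and -0.02 in Il18-/-. Hmgcs1, the HMG-CoA synthase gene, read 4.65 and 4.53, a difference of -0.12 with an error of 0.20. Mvd, the mevalonate diphosphate decarboxylase gene, read 0.14 and 0.04. The levels of these genes in the 2 genotypes lay within the error of a spot. Mvk, which encodes mevalonate kinase, went from 1.63 to 1.59 over 2 probes that differed by 0.03 and -0.10. Pmvk, the phosphomevalonate kinase gene, went from 3.41 to 3.51, and its 2 probes agreed closely at 0.10 and 0.12. Idi1, which encodes isopentenyl diphosphate isomerase, read 2.40 and 2.44, and Fdps, the farnesyl diphosphate synthase gene, read 3.46 and 3.44. Of these 7 genes 5 were below 0 and 2 above, with a median of -0.03.

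At the steps from squalene to lanosterol Sqle was level, Lss read lower, and the probes of Fdft1 disagreed. Fdft1, the squalene synthase gene at the branch into sterols, went from -1.38 to -1.69. Its difference of -0.31 came from a dim probe, with an intensity of 38.8 in Il18+/+ and 26.4 in Il18-/-, that differed by -0.59. The brighter Fdft1 probe, with intensities of 1838 and 1833, differed by -0.04. Sqle, the squalene epoxidase gene that is a control point of the pathway, read 3.23 and 3.24. Lss, which encodes lanosterol synthase, went from -1.73 to -1.97, a difference of -0.24 with an error of 0.21. Fdft1 and Lss were, with Sc5d, the 3 members whose difference was larger than its software error, and both lay inside the central 90% of all genes. The share of all genes past their own error was not computed, so this count has no background beside it.

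In the trimming of lanosterol to cholesterol, Sc5d was the only gene that differed by more than its software error. Cyp51, the lanosterol demethylase gene, read -1.05 and -1.22, a difference of -0.16 with an error of 0.20. Tm7sf2, a sterol reductase gene, read 0.79 and 0.74. Msmo1, which starts the removal of further methyl groups, read 3.99 in both genotypes. Nsdhl and Hsd17b7, which complete that removal, differed by -0.10 and 0.00. The 2 probes of Hsd17b7 fell on either side of 0, at 0.15 and -0.15. Ebp, the sterol isomerase gene just before Sc5d, read 2.98 and 2.95, and Dhcr7, whose product reduces the product of Sc5d to cholesterol, read -0.03 and 0.06. The genes for the steps directly before and after Sc5d thus differed by -0.03 and 0.09, both under the error of a spot. Of the 11 genes from Fdft1 to Dhcr7, 9 were below 0, against 47.4% of all genes, with a median of -0.05. With the median of each array as the scale, Tm7sf2, Msmo1, Hsd17b7 and Ebp turned above 0. Fdft1, Lss, Cyp51, Nsdhl and Sc5d stayed below 0 under that scale.

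Sc5d was read by 1 probe, with an intensity of 1905 in Il18+/+ and 1181 in Il18-/-. Its level went from 1.46 to 0.73, a difference of -0.72 with a software error of 0.20. It held place 215 from the lowest of the 15737 genes, at the 1.37 percentile. The 5 other settings that can move a gene read by 1 bright probe, namely 4 scalings and a background correction, gave differences from -1.01 to -0.66, each past 1.5-fold. The 18 spots nearest to the Sc5d spot on the glass had a median difference of 0.03, and 1 of them was at least 2-fold lower. Sc5d lies on chromosome 9, as does Il18, with 77 measured genes between them in the gene order of GRCm38.p6. Of those 77 genes 7 lay 1.5-fold or more below and 8 lay 1.5-fold or more above, together 19.5% of them, against 4.25% of all genes, and their median was -0.01.

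The genes directly beside Sc5d were examined for their place, after the value of Sc5d was known. Sorl1, the measured gene on one side, which encodes a sorting receptor of the low-density lipoprotein receptor family, was 1.82-fold higher in Il18-/-, with levels of 3.84 and 4.70. Tbcel, on the other side, differed by -0.13. Farther out, Mir100hg differed by -0.55 and Ubash3b by 0.51, each by 1 probe, while Crtam, Grik4, Arhgef12 and Tlcd5 lay between -0.01 and 0.10. Sc5d and Sorl1, next to each other among the measured genes, thus read in opposite directions, each by 1 probe. The nearest spots of the Sorl1 probe had a median difference of 0.07.

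**Figure D2:**
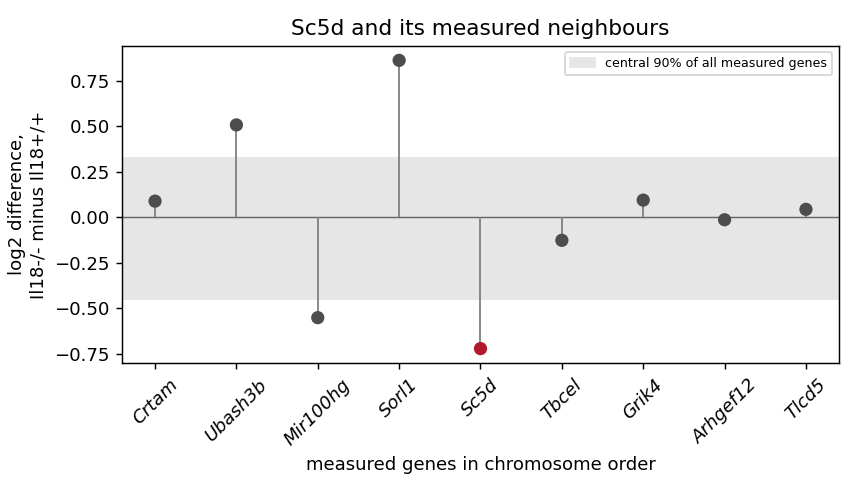
Log2 difference between Il18-/- and Il18+/+ for Sc5d and the 4 nearest measured genes on each side in chromosome order, without distances, with a grey band for the central 90% of all measured genes. Sc5d at -0.72 and Sorl1 at 0.86 stand on opposite sides of 0.

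The promoters of 4 members are shown to set the gene that differed beside level members of the same pathways. They are the 250 bases before the start from the RefSeq table of GRCm38.p6, written 5′ to 3′ on the strand of the gene. Capitals mark the CCAAT box, the site of the factor NF-Y that works with SREBP at sterol genes, as CCAAT or ATTGG, and the sterol regulatory element, searched as TCACNCCAC on both strands. Hmgcs1 (chr13:119690101-119690350, plus strand) is the 1 member window that holds this spelling of the element, Sc5d (chr9:42264301-42264550, minus strand) is the gene that differed, Msmo1 (chr8:64733579-64733828, minus strand) is a sterol gene that read the same on both arrays, and Fasn (chr11:120824548-120824797, minus strand) represents the fatty acid steps.
Hmgcs1: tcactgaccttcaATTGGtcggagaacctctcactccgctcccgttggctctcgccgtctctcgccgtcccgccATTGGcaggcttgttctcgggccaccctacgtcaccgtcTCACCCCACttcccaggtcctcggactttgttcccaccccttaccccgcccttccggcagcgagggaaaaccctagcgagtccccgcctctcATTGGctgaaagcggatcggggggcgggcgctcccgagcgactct
Sc5d: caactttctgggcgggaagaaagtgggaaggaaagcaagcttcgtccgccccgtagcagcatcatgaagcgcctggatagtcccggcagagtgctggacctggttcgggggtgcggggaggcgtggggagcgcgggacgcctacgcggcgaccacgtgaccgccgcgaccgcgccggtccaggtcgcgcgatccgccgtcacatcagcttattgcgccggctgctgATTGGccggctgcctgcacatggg
Msmo1: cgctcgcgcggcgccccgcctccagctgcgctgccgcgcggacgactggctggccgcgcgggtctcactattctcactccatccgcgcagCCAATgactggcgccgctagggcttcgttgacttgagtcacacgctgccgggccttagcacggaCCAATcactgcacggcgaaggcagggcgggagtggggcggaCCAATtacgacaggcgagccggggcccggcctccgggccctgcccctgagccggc
Fasn: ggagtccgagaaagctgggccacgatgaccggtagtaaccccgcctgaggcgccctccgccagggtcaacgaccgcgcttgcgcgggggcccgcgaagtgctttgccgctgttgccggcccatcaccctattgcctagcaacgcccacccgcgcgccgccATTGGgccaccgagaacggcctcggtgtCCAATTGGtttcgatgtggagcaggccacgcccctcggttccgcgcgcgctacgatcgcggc
The Sc5d window has 1 CCAAT box, 24 to 20 bases before the start. Hmgcs1, Msmo1 and Fasn have 3 each, and in Fasn 2 of them overlap on opposite strands. A count of 1 is not particular to Sc5d. The windows of Lss, Cyp51, Tm7sf2, Srebf2 and Insig1 also have 1, and those of Acat2, Scap, Acaca and Elovl6 have none. The table held promoters of 22 members and no entry for Fdps, Fdft1, Sqle, Stard4, Scd1 and Scd2. A CCAAT box stood in a window of 18 of the 22 members (81.8%), Sc5d included, and of 37.5% of 27025 genes. The GC box GGGCGG stood in 18 of 22, against 35.4% of all genes, and the E box CACGTG in 5 of 22, namely Hsd17b7, Sc5d, Dhcr7, Insig1 and Scap, against 6.86%. TCACNCCAC stood in 1 of 22, against 1.22%. The member windows were richer in G and C, with a median of 62.6% against 52.4% over all windows, and the part of base composition in these shares was not tested. These are matches of letters, not measured binding.

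The 5 members of sterol regulation and transport were as level as the enzymes. Regulators outside the member set, among them Mbtps2 at -0.57 and Mbtps1 at 0.23, are given further below. Srebf1 read -1.63 in both genotypes. Srebf2 went from -1.84 to -1.88, with its 2 probes at 0.09 and -0.16. Scap, the escort of both factors, read 3.57 and 3.67. Insig1, whose product retains SCAP and whose transcript itself is a target of SREBP, went from -1.29 to -1.47, a difference of -0.18 with an error of 0.21. Stard4, which encodes a cytosolic sterol carrier, read -0.05 and -0.10 by the probe that was above background on both arrays. None of these 5 genes differed by more than its error, and their median was -0.04.

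The fatty acid steps also differed little. Acaca encodes acetyl-CoA carboxylase, which makes malonyl-CoA, and its 3 probes disagreed. The bright one, with intensities of 5174 and 5863, differed by 0.15, while dimmer ones differed by 0.05 and -0.45, which gave a mean of -0.08. Fasn, the fatty acid synthase gene, went from -0.77 to -0.65, a difference of 0.12 with an error of 0.20. Elovl6, which lengthens palmitate, read 2.67 and 2.58. Scd1 and Scd2 encode desaturases that make oleate, and Scd2 is the main form in brain. Scd1 read 1.67 and 1.60, and Scd2 read 6.45 and 6.46. The Scd genes are close copies of each other, so which of them each probe read is uncertain.

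**Figure D3:**
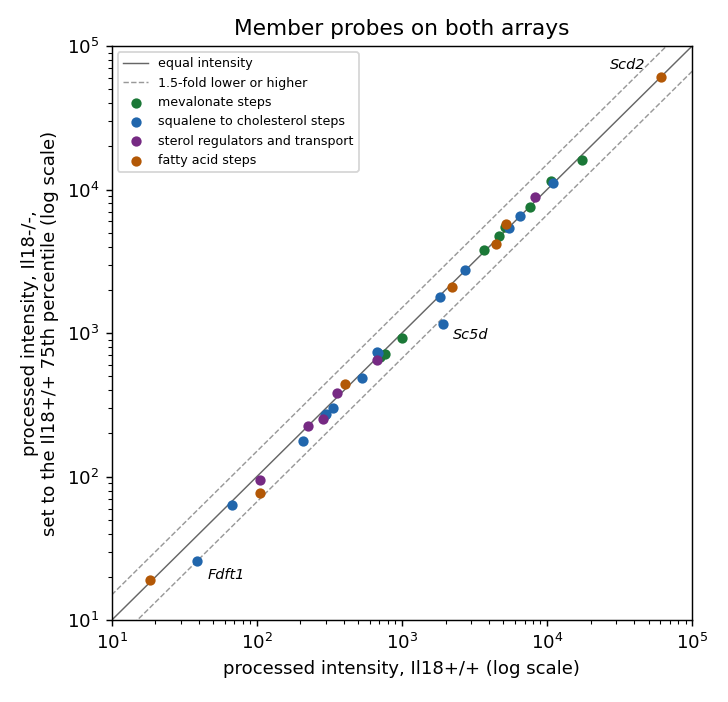
Processed intensity of the 37 measured member probes on the Il18+/+ array (x) and on the Il18-/- array set to the same 75th percentile (y), both on log scales, with lines for equal intensity and for 1.5-fold. The Sc5d probe lies below the 1.5-fold line and the dim Fdft1 probe, which differed by -0.59, lies on it.

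Sterol and fatty acid steps were then set side by side. The 18 sterol steps had a median of -0.04 and a range from -0.72 to 0.11, with 14 below 0. The 5 fatty acid steps had a median of -0.07 and a range from -0.09 to 0.12, with 3 below 0. The median of the sterol steps lay 0.04 above that of the fatty acid steps, while the mean of the sterol steps minus that of the fatty acid steps was -0.07. The fatty acid range lay inside the sterol range, and the order of the 2 medians turned with the choice of probes, to -0.034 with only the brightest probe of a gene. With the median of each array as the scale, 7 of 18 sterol steps were below 0, or 38.9% beside 36.1% of all genes. Against the median of all genes, 15 of 18 sterol steps and 4 of 5 fatty acid steps were lower, and under the other settings these counts were 13 to 15 and 3 to 4.

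**Figure D4:**
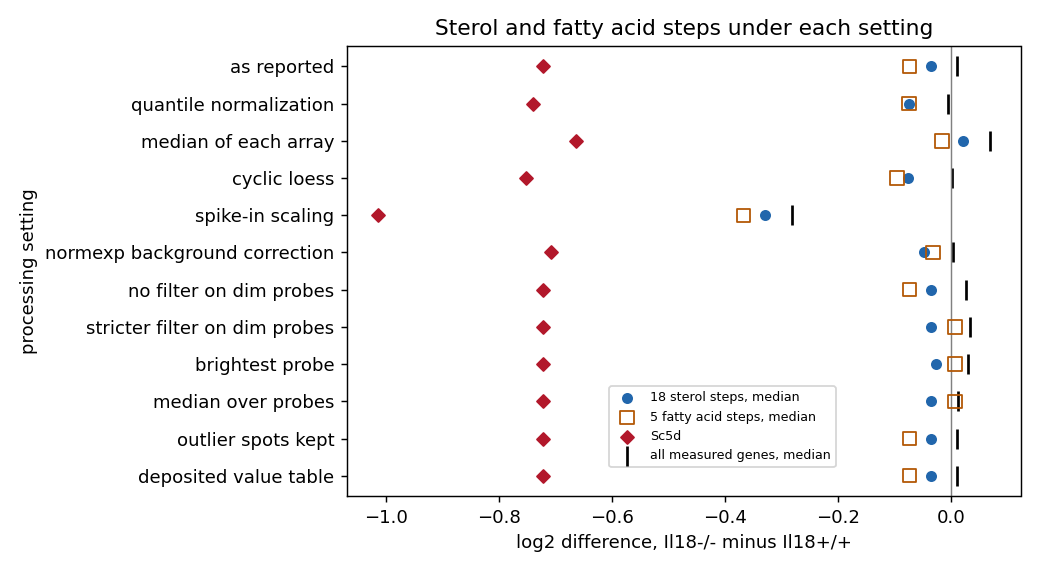
Median log2 difference of the 18 sterol steps, of the 5 fatty acid steps and of all measured genes, and the difference of Sc5d, under each processing setting. Sc5d stays between -1.01 and -0.66, and both medians lie below the median of all genes in each setting.

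Other genes of the sterol pathway, from a list of 12, spread more widely than the members. Of 11 measured genes 8 were below 0 and none reached 1.5-fold, with a median of -0.13, and 3 differed by less than 0.1. The largest differences were those of Mbtps2 and Lbr. Mbtps2, which encodes a protease that cuts SREBP in the Golgi, went from -3.05 to -3.62, by 2 probes at -0.71 and -0.43. Mbtps1, which encodes the other protease of that step, differed by 0.23. Lbr, whose product shares a sterol reductase activity with that of Tm7sf2, went from -2.45 to -3.01. Its dim probe had intensities of 39.3 and 20.1, while its brighter probe differed by -0.12.

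Among 23 other genes of fatty acid synthesis, all measured, 15 were below 0 and none reached 1.5-fold, with a median of -0.03. Elovl7, which lengthens long fatty acids, went from 1.74 to 1.27 and was 1.38-fold lower. Fads2, a desaturase gene of polyunsaturated fatty acids, went from -2.48 to -2.85. Acacb, the second acetyl-CoA carboxylase gene, went from -0.79 to -1.15. Elovl1, an elongase gene of very long saturated chains, went from 1.51 to 1.23, with probes that differed from each other by an SD of 0.04.

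Genes of sterol efflux, storage and clearance had a median of -0.06, with 13 of 19 measured below 0. Soat1, which encodes the enzyme that esterifies cholesterol for storage, went from -1.66 to -3.07 and was 2.66-fold lower. The Soat1 spot stood among spots that differed the same way: the 18 nearest had a median of -1.01, and 9 of them were at least 2-fold lower. Their part in the Soat1 value was not tested. Such a group was defined as a spot at 1.5-fold with at least 2 of its 18 nearest at 2-fold in the same direction. Of the 37 member spots only that of Sc5d and the dim one of Fdft1 reached 1.5-fold. Each had 1 such neighbour, so neither met the definition. The other member spots could not meet it, though 1 spot each of Acat2, Pmvk, Nsdhl and Srebf2 had 2 such neighbours. Mbtps2 had 1 spot that met the definition, at -0.71. So did Cryab and Enpp6 of the myelin list, Clic6, Folr1 and Otx2 of the choroid plexus list and Pou4f1 of the habenula list. The part of these spots in the values of those lists was not tested. Cyp39a1 and Cyp7b1, both hydroxylase genes of oxysterol breakdown, were 1.30-fold lower and 1.23-fold higher. Vldlr, a lipoprotein receptor gene, differed by -0.26.

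Lists of cells that make or hold these lipids were read on the same arrays. Of 22 myelin genes 18 were below 0, with a median of -0.21. Their summed level, in multiples of the 75th percentile, was 373 in Il18+/+ and 299 in Il18-/-, and Cryab, a small heat shock gene, was 2.33-fold lower. In the choroid plexus list each of the 20 genes was lower by 1.5-fold or more, with a median of -1.19 and a summed level of 396 in Il18+/+ and 199 in Il18-/-. Astrocyte genes had a median of 0.03, with 7 of 15 below 0 and summed levels of 467 and 458. Among them only Fgfr3 passed 1.5-fold, at 1.81-fold lower, and its 2 probes disagreed, at -1.52 and -0.20. Slc1a2 differed by -0.39 and Slc1a3 by 0.17. Most liver genes were higher, 11 of 16 past 1.5-fold and with a median of 1.93, while 4 were below 0, namely Trf, Fga, Cyp3a11 and Tat. Most medial habenula genes were higher too, 8 of 12 past 1.5-fold, with a median of 1.12 and 1 gene, Tac1, below 0. The summed level of the liver list was 51.9 and 48.5, and that of the habenula list was 9.96 and 17.1. These sums add different probes, so that bright probes weigh most, and each is set only against the same list on the other array. Trf, which was lower in Il18-/-, was the brightest gene of the liver list on both arrays. The liver sum thus weighs Trf most and does not show that most liver genes were higher. Apoa1 and Pck1 of the liver list and Chrna3 and Gpr151 of the habenula list were well above background in Il18-/- only. Cps1 of the liver list and Chrnb3 of the habenula list were so on neither array. None of these genes entered a reported difference. The part of these cells in the values of Sc5d or of any other member was not tested.

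**Figure D5:**
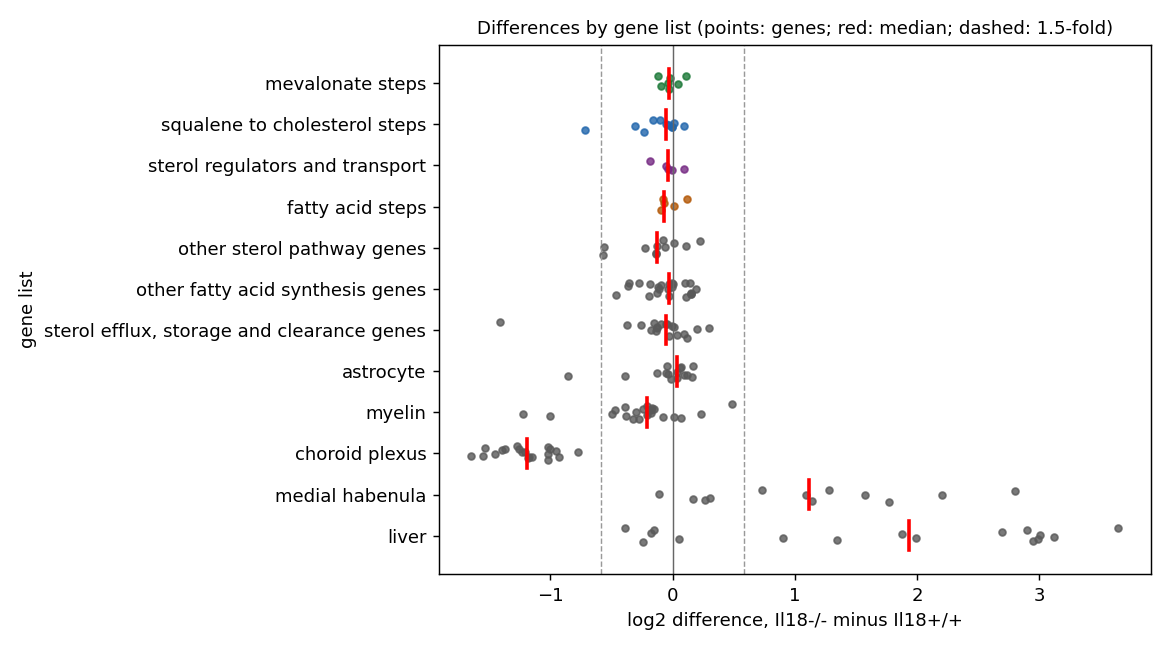
Log2 difference between Il18-/- and Il18+/+ for each measured gene of the 4 member groups, of 3 further lipid lists and of 5 lists of other cells or tissues, with the median of each list in red and 1.5-fold as dashed lines. The member groups lie close to 0, with medians from -0.07 to -0.03. Choroid plexus genes have a median of -1.19 and liver genes one of 1.93, with 4 of 16 liver genes below 0.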

How the data were processed

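Per the labels, 1 pool of RNA from 7 mice was made for each genotype and read on 1 one-colour Agilent array. The deposited intensity values came from Agilent Feature Extraction 10.10.1.1 per the submitters' processing notes; per the file headers the authors' processed intensity was background-subtracted and detrended, not scaled between arrays, and the design refers to mm9. The array's 0/1 flag columns, named other than signals per the file headers, gave outliers, saturation and spots well above background. The deposited value table equals the processed intensity times 2.05 for Il18+/+ and 1.92 for Il18-/- (column medians 151.5 and 139.5), linear and not centred. What set these constants is unknown.

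Control spots (3671 of 62976) and outlier spots (124 and 177) were left out. Log2 intensity minus the 75th percentile of each array (694.8 and 709.9) was averaged over spots of a probe and over probes well above background on both arrays. Accessions matched to RefSeq genes of GRCm38.p6 named 27235 of 55681 probes, 28446 stayed unnamed and none had several symbols. Of 38 member probes 37 were measured, and 20 members rest on 1 probe. The median SD of the difference was 0.07 between repeated spots and 0.12 between probes of 1 gene. Differences were named for all 28 members, Il18 and some of the 4 genes with the largest difference from each further list, and genes without a measured difference were named as such. Liver and habenula genes below 0 and myelin genes above 0 were named for their side. Some genes of the other sterol pathway list are not reported here. Members and lists were chosen with earlier results of these data known, and the neighbours of Sc5d and the region markers after its value was seen. The number of arrays limits the precision. The calculations were tested on simulated data. R 4.3.3 with limma 3.58.1 gave loess and normexp (offset 50), and all else ran in Python 3.11.15 with pandas 2.3.3, numpy 2.4.6, scipy 1.17.1 and matplotlib 3.10.9.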

Additional observations from a re-analysis of the deposited data

Results flagged for a closer look

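The spike-in control probes, RNA added in fixed amounts, gave a signal outside the gene comparisons. After scaling to the 75th percentile, the 8 spike-in probes well above background had a median difference of 0.29, higher in Il18-/-. Scaled to them, every member difference falls by that amount, which takes all 18 sterol steps below 0, beside 93.9% of all genes, and Sc5d to -1.01.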

How the results depend on the processing

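Alternatives were run on the 28 members, the sterol and fatty acid steps and all genes, not on the other lists. With the median of each array as the scale, the sterol median turned to 0.022 and 7 sterol steps were below 0, while the median of all genes moved to 0.07. Scaled to the spike-in controls, the medians were -0.33 for sterol and -0.37 for fatty acid steps, all 5 fatty acid steps were below 0, 2 members were at least 1.5-fold lower (Sc5d and Fdft1) and the median of all genes was -0.28. The fatty acid median turned to 0.0073 with the stricter filter on dim probes, with the brightest probe and with the median over probes, under which Acaca differed by 0.15, 0.15 and 0.05. The sterol minus fatty acid difference turned to -0.042 with the stricter filter, -0.034 with the brightest probe, -0.043 with the median over probes and -0.015 with normexp background correction, whose cause was not tested. The count of members at 1.5-fold was the same under the other 10 alternatives, always Sc5d. Outside the spike-in scaling 14 members kept 1 sign, 10 lower and 4 higher. Over all genes, the 1.5-fold calls were 405 lower and 264 higher as reported, 317 and 320 with the median scale, 271 and 340 with loess, 107 and 113 with normexp and 1659 and 129 with the spike-in scale. Normexp ran on the median signal of each spot. No paired analysis was possible because each genotype had 1 sample, and no replicate could be left out.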

Other observations

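Probes that were above background on 1 array only entered no reported difference, only the setting without a filter. The second Stard4 probe, with levels of -5.36 in Il18+/+ and -5.40 in Il18-/-, was well above background in Il18+/+ only, and so was the second Acacb probe, with intensities of 21.9 and 17.4. Idi2, a second isopentenyl diphosphate isomerase gene, and Cyp27a1, which encodes a sterol hydroxylase, had no probe above background on both arrays.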
